A study of Mus musculus with 1 sample.

Results

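The 10 genes described here encode the kinases through which GADD45 proteins are linked to p38 and JNK signaling. They are the MAP3K gene *Map3k4*, the MAP2K genes *Map2k3*, *Map2k6*, *Map2k4* and *Map2k7*, the p38 genes *Mapk14*, *Mapk11* and *Mapk13*, and the JNK genes *Mapk8* and *Mapk9*. They were listed by name, with earlier results of these data known. All 10 were found among the 54532 genes of the table through their Ensembl identifiers in GENCODE M21. RNA was taken from c-kit+ BM cells of Ctrl mice, which the labels describe as wild type on the C57BL/6 strain, and was sequenced as 1 library. The label of the sort adds that the cells were negative for lineage markers and Sca-1, and the number and age of the mice are not given in the sources used here. The levels of *Ly6a* (Sca-1), *Ly6g* and *Itgam*, given with the other markers, go against that label. In the study these cells were set beside those of *Gadd45g*+/- mice with MPN, whose floxed allele is removed in blood cells by *Vav-Cre*. The library of those mice was not analysed here, so each value below is a level in Ctrl cells, without replicates and without a test between conditions. The levels are FPKM, the fragments on a gene scaled to the length of its exons in kilobases and to the size of the library, and about 17113323 fragments could be recovered from them.

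The p38 and JNK cascades pass a signal along a row of kinases, in which a MAP3K phosphorylates a MAP2K and the MAP2K phosphorylates a MAPK. MAP3K4 is the MAP3K that GADD45 proteins bind and activate, and MKK3 and MKK6 (*Map2k3*, *Map2k6*) act on p38, whereas MKK4 and MKK7 (*Map2k4*, *Map2k7*) act on JNK, with MKK4 also able to act on p38. In blood-forming cells these pathways are known for responses to cytokines, to inflammation and to DNA damage, with effects on cell cycle arrest, apoptosis and the output of stem cells.

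Each MAPK is switched on by phosphorylation of a threonine and a tyrosine that lie on either side of a single residue in its activation segment. That residue is a glycine in p38 kinases and a proline in JNK kinases. The coding sequence of this segment is given because it is the site on which the MAP2K and MAPK tiers meet and because it separates the p38 genes from the JNK genes. Each sequence was read from the GENCODE M21 transcript with the longest complete coding sequence, runs from 5′ to 3′ on the sense strand, and has the codons of the threonine, the middle residue and the tyrosine in capitals.
*Mapk14*: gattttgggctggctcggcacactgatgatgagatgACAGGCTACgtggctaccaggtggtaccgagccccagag
*Mapk11*: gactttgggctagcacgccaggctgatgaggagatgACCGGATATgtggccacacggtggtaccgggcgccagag
*Mapk13*: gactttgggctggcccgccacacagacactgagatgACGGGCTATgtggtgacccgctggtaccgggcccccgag
*Mapk8*: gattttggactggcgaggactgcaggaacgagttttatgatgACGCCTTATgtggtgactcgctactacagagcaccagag
*Mapk9*: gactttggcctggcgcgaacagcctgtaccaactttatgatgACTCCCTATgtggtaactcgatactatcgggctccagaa
The segment is 75 bases long in the 3 p38 genes and 81 bases in the 2 JNK genes, and in all 5 it lies within 1 exon. In GRCm38 the capitals lie in exon 7 of *Mapk14* at chr17:28728399-28728407, in exon 7 of *Mapk13* at chr17:28776344-28776352 and in exon 7 of *Mapk11* at chr15:89145866-89145874. Those of *Mapk8* lie in exon 6 at chr14:33393003-33393011 and those of *Mapk9* in exon 6 at chr11:49872830-49872838. *Mapk14* and *Mapk13* are on the forward strand and so is *Mapk9*, whereas *Mapk11* and *Mapk8* are on the reverse strand. The segment of *Mapk14* shares 60 of its 75 bases with that of *Mapk11* and 60 with that of *Mapk13*, and *Mapk8* shares 61 of 81 bases with *Mapk9*.

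The MAP2K are themselves switched on by a MAP3K at a serine and a threonine in the corresponding segment, and the codons from that serine to that threonine are in capitals in the sequences below, which are shown as the site on which a MAP3K such as MAP3K4 acts.
*Map2k3*: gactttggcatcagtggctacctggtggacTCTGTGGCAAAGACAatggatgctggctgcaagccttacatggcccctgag
*Map2k6*: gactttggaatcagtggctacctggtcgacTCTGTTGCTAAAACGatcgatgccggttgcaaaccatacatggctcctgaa
*Map2k4*: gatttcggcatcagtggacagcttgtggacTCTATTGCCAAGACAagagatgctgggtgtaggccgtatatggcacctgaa
*Map2k7*: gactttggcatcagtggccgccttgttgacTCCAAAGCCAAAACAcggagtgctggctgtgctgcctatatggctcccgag
All 4 segments are 81 bases long. *Map2k3* shares 68 bases with *Map2k6*, the other MAP2K of p38, and 63 and 58 with *Map2k4* and *Map2k7*. The capitals lie in exon 8 of *Map2k3* (chr11:60946727-60946741), exon 8 of *Map2k6* (chr11:110496422-110496436), exon 7 of *Map2k4* (chr11:65707014-65707028, reverse strand) and exon 8 of *Map2k7* (chr8:4244562-4244576).

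mRNA of every tier was found in the Ctrl cells. All 10 genes reached 1 FPKM, a level reached by 22.2% of all listed genes and by 46.8% of the protein-coding ones. *Mapk12* and *Mapk10*, the p38 and JNK genes left out of the 10, did not reach it, at 0.982 and 0 FPKM. The count, and the median given below, therefore depend on which genes of these families were listed. At 10 FPKM there were 4 of the 10, against 9.37% of all listed genes and 21.2% of the protein-coding ones, and at 0.1 FPKM all 10, against 32.9% and 59.1%. The levels ran from 1.98 FPKM for *Mapk8* to 70.8 FPKM for *Mapk14*, with a median of 8.81 FPKM, against a median of 1.77 FPKM over the 21322 genes above 0 and of 4.22 FPKM over the 14860 protein-coding genes above 0. The order of the levels in FPKM was *Mapk14*, *Map2k3*, *Map2k4*, *Mapk13*, *Map2k7*, *Mapk9*, *Mapk11*, *Map3k4*, *Map2k6* and *Mapk8*. Within this order *Mapk11* was 1.11 times *Map3k4* (95% exact binomial interval of the ratio, 0.934 to 1.32). *Map3k4* was 1.19 times *Map2k6* (interval, 0.993 to 1.43). Both intervals include a ratio of 1, so these neighbours were not told apart in FPKM at this depth. For each other pair of neighbours the interval lay above 1, the nearest to it being *Map2k4* and *Mapk13*, with a ratio of 1.12 (interval, 1.02 to 1.22). Gene length turned some neighbours. *Map2k7* was 1.19 times *Mapk9* in FPKM and 1.97 times with the median length of the coding transcripts. It was 0.891 times *Mapk9* with the longest coding transcript of each gene and 0.671 times in fragments not divided by length. *Map2k6* was 1.46 times *Mapk8* in FPKM, but 0.44 times in undivided fragments and 0.323 times with the median length of the coding transcripts. *Map2k3* and *Map2k4* turned with that median as well, and *Mapk11* was below *Map3k4* with each of the 3 other treatments of length. *Map3k4* was 3.51 times *Map2k6* in undivided fragments, 1.35 times with the longest coding transcript and 2.56 times with that median. These intervals cover counting error only. They do not take in PCR duplicates or the spread between mice, which is unknown. In RNA of a cell population, a gene expressed in few cells and a gene expressed weakly in many cells cannot be told apart.

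**Figure D1:**
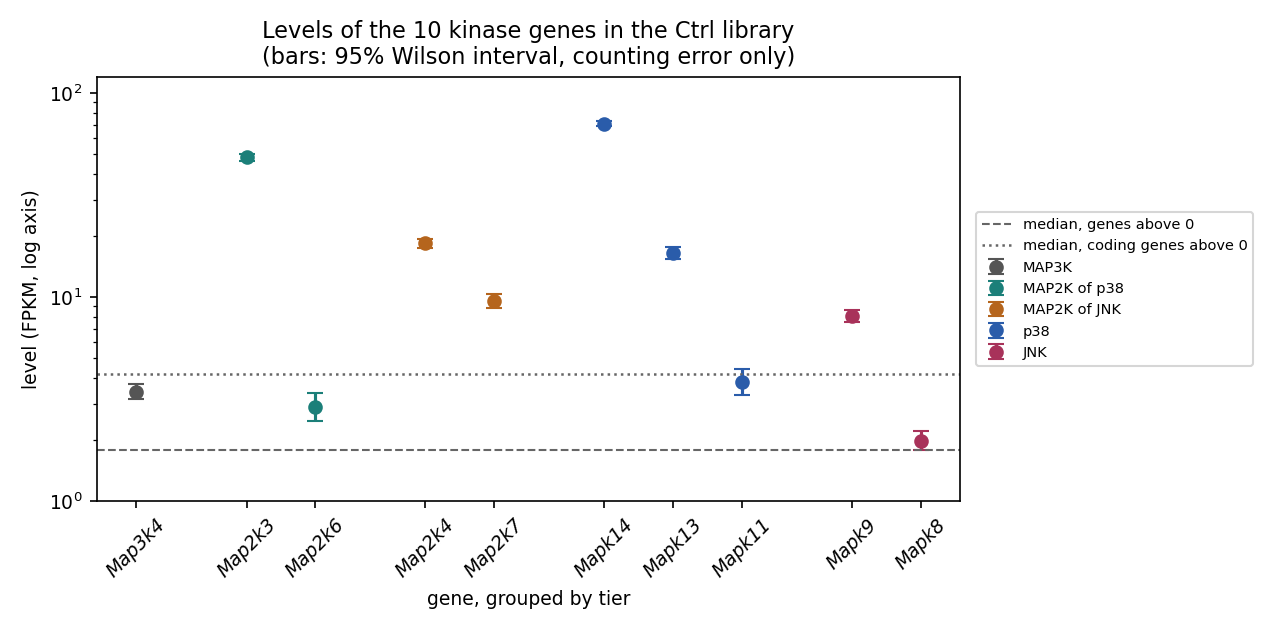
Levels of the 10 kinase genes in the Ctrl library in FPKM on a log axis, grouped by tier, with bars for the 95% Wilson interval of counting error. *Mapk14* and *Map2k3* stand highest at 70.8 and 48.3 FPKM, while *Map3k4*, *Map2k6*, *Mapk11* and *Mapk8* lie below the median of protein-coding genes above 0, 4.22 FPKM (dotted line).

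At the head of the cascade the GADD45 genes were higher in FPKM than the gene of the kinase they act on. *Map3k4* (ENSMUSG00000014426, reverse strand of chromosome 17, 12227621 to 12318796) had 3.43 FPKM from 551 recovered fragments, with an interval of 3.15 to 3.73 FPKM. Of the protein-coding genes above 0, 46.4% were lower, so its level was close to the middle of the expressed coding genes. *Gadd45g*, the gene studied here, was at 19.3 FPKM, which is 5.64 times *Map3k4* (95% exact binomial interval of the ratio, 4.92 to 6.45). The stress sensor gene *Gadd45a* was 23.0 times *Map3k4* (interval, 20.9 to 25.3) and *Gadd45b* 4.56 times (interval, 3.99 to 5.20). The size of these ratios depended on gene length. With the median coding transcript they were 1.73 for *Gadd45g*, 15.9 for *Gadd45a* and 2.01 for *Gadd45b*. In fragments not divided by length, *Gadd45g* with 358 and *Gadd45b* with 392 were below *Map3k4* with 551. *Gadd45a* was then 3.98 times *Map3k4*.

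Most other MAP3K genes listed were above *Map3k4* in FPKM, but not with each treatment of gene length. In a list of 16 further MAP3K of the stress pathways, 14 reached 1 FPKM and the median was 6.20 FPKM. Of these, 11 were above *Map3k4* and 5 below it, and *Map3k4* made up 1.99% of the summed FPKM of the 17 genes. *Map3k3* (MEKK3) was highest at 39.2 FPKM, 11.4 times *Map3k4* (interval, 10.4 to 12.5) and 3.73 times with the median coding transcript. *Map3k10* and *Map3k20*, at 3.37 and 3.36 FPKM, had intervals that overlapped that of *Map3k4*. *Map3k13* (LZK) was lowest, at 0.0872 FPKM from 12 recovered fragments. The place of *Map3k4* depended on the length by which fragments were divided, since its annotated exons cover 10181 bases and its longest coding transcript 5441 bases. Among the 14 genes with a whole number of fragments, 9 were above it in FPKM. When fragments were divided by the longest coding transcript of each gene, 7 of the 14 were above it and 7 below. With the median length of the coding transcripts, 6 were above it and 8 below. The 3 adaptor genes of TAK1 (*Map3k7*) all reached 1 FPKM, with *Tab2* highest at 36.8 FPKM and *Tab3* lowest at 9.68 FPKM.

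**Figure D2:**
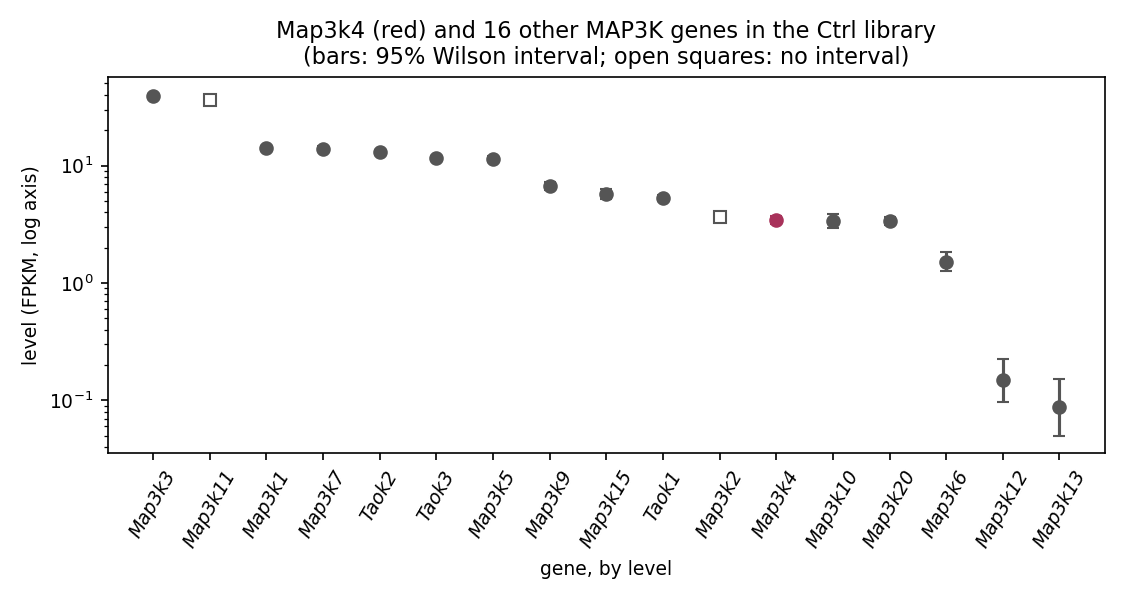
Levels of *Map3k4* (red) and 16 other MAP3K genes in the Ctrl library in FPKM on a log axis, ordered by level, with bars for the 95% Wilson interval and open squares for 2 genes that have none because no whole number of fragments was recovered. *Map3k4* at 3.43 FPKM is below 11 of the 16, led by *Map3k3* at 39.2 FPKM.

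Among the MAP2K, *Map2k3* had the highest level in FPKM, although its place before *Map2k4* depended on the gene length used. *Map2k3* (ENSMUSG00000018932, forward strand of chromosome 11, 60932033 to 60952811) had 48.3 FPKM from 2527 recovered fragments (interval, 46.5 to 50.2 FPKM). *Map2k6* (ENSMUSG00000020623, forward strand of chromosome 11, 110399122 to 110525522), whose product shares the substrate p38, had 2.89 FPKM from 157 recovered fragments (interval, 2.47 to 3.38 FPKM). *Map2k3* was thus 16.7 times *Map2k6* (interval, 14.2 to 19.8), and this ratio was between 12.7 and 16.2 under the other settings tried.

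The MAP2K genes of the JNK branch were closer to each other. *Map2k4* (ENSMUSG00000033352, reverse strand of chromosome 11, 65688243 to 65788297) had 18.4 FPKM from 1351 recovered fragments (interval, 17.4 to 19.4 FPKM). *Map2k7* (ENSMUSG00000002948, forward strand of chromosome 8, 4238740 to 4247897) had 9.56 FPKM from 578 recovered fragments (interval, 8.82 to 10.4 FPKM). *Map2k4* was 1.92 times *Map2k7* (interval, 1.74 to 2.12). This ratio was 2.23 with the longest coding transcript and 4.77 with the median coding transcript. The value of *Map2k7* is uncertain, because 1349 of its 3829 exon bases, or 35.2%, are also exons of the annotated gene *Gm49320* on the same strand, which is listed at 0 FPKM. How fragments on shared bases were counted is not given in the sources used here. If none of them were counted for *Map2k7*, its level over the other 2480 bases would be 14.8 FPKM and the ratio of *Map2k4* to *Map2k7* would be 1.24. The MAP2K genes of p38 summed to 51.2 FPKM and those of JNK to 27.9 FPKM, a ratio of 1.83. This ratio was 2.31 with the longest coding transcript and 1.39 in fragments not divided by length, and it reversed to 0.584 with the median coding transcript, so the order of the branches at this tier depends on the length used. *Map2k3* made up 61.1% of the tier (95% exact interval, 59.7% to 62.4%), *Map2k4* 23.2%, *Map2k7* 12.1% and *Map2k6* 3.65%. With the median length of the coding transcripts, which is 778.5 bases for *Map2k4*, *Map2k4* came first with 52.2% and *Map2k3* second with 34.6%.

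Among the p38 genes, the level was highest for *Mapk14*, which encodes p38α, the most widely expressed p38 kinase. *Mapk14* (ENSMUSG00000053436, forward strand of chromosome 17, 28691329 to 28748406) had 70.8 FPKM from 4889 recovered fragments (interval, 68.8 to 72.8 FPKM), and 773 of all genes, itself included, were at or above this level. *Mapk13* (ENSMUSG00000004864, forward strand of chromosome 17, 28769297 to 28780233), which encodes p38δ, had 16.4 FPKM from 816 recovered fragments (interval, 15.3 to 17.6 FPKM). *Mapk11* (ENSMUSG00000053137, reverse strand of chromosome 15, 89142486 to 89149628), which encodes p38β, had 3.82 FPKM from 174 recovered fragments (interval, 3.29 to 4.43 FPKM). The 3 intervals were well apart. *Mapk14* was 4.31 times *Mapk13* (interval, 4.004 to 4.65), and *Mapk13* was in turn 4.30 times *Mapk11* (interval, 3.64 to 5.09). With the longest coding transcript these ratios were 4.90 and 3.93, and with the median coding transcript 2.24 and 9.82. *Mapk14* held 77.8% of the summed FPKM of these genes (95% exact interval, 76.6% to 78.9%), *Mapk13* 18.03% and *Mapk11* 4.195%. This order was the same with each of the 3 other ways of treating gene length, and the share of *Mapk14* then ran from 67.0% to 83.2%. The remaining p38 gene, *Mapk12* (p38γ), was at 0.982 FPKM from 59 recovered fragments. Its interval of 0.762 to 1.27 FPKM includes 1 FPKM. *Mapk14* was 72.1 times *Mapk12* in FPKM (interval, 55.8 to 94.8). This ratio was 82.9 in fragments not divided by length, 41.7 with the longest coding transcript and 47.6 with the median.

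The JNK genes had a smaller summed level than the p38 genes, although *Mapk9* was above *Mapk11*. *Mapk9* (ENSMUSG00000020366, forward strand of chromosome 11, 49846751 to 49886421), which encodes JNK2, had 8.05 FPKM from 862 recovered fragments (interval, 7.53 to 8.61 FPKM). *Mapk8* (ENSMUSG00000021936, reverse strand of chromosome 14, 33377898 to 33447158), which encodes JNK1, had 1.98 FPKM from 357 recovered fragments (interval, 1.78 to 2.19 FPKM). *Mapk9* was 4.07 times *Mapk8* in FPKM (interval, 3.60 to 4.62). The ratio was sensitive to gene length, since the exons of *Mapk8* cover 11444 bases, the most of the 10 genes, while its longest coding transcript has 5756 bases. It was 2.97 with the longest coding transcript of each gene and reversed to 0.789 with the median length of the coding transcripts, which is 1528 bases for *Mapk8* and 4675 bases for *Mapk9*. Which JNK gene had more transcripts per cell can therefore not be read from this library. *Mapk10* (JNK3), best known from neurons, is listed at 0, which at this depth allows up to 0.0171 FPKM. *Mapk14*, *Mapk13* and *Mapk11* together had 91.0 FPKM against 10.03 FPKM for *Mapk8* and *Mapk9*. This ratio of 9.08 was 6.95 with the longest and 5.54 with the median coding transcript, and 4.82 in fragments not divided by length, so the p38 sum was higher under each of these settings.

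**Figure D3:**
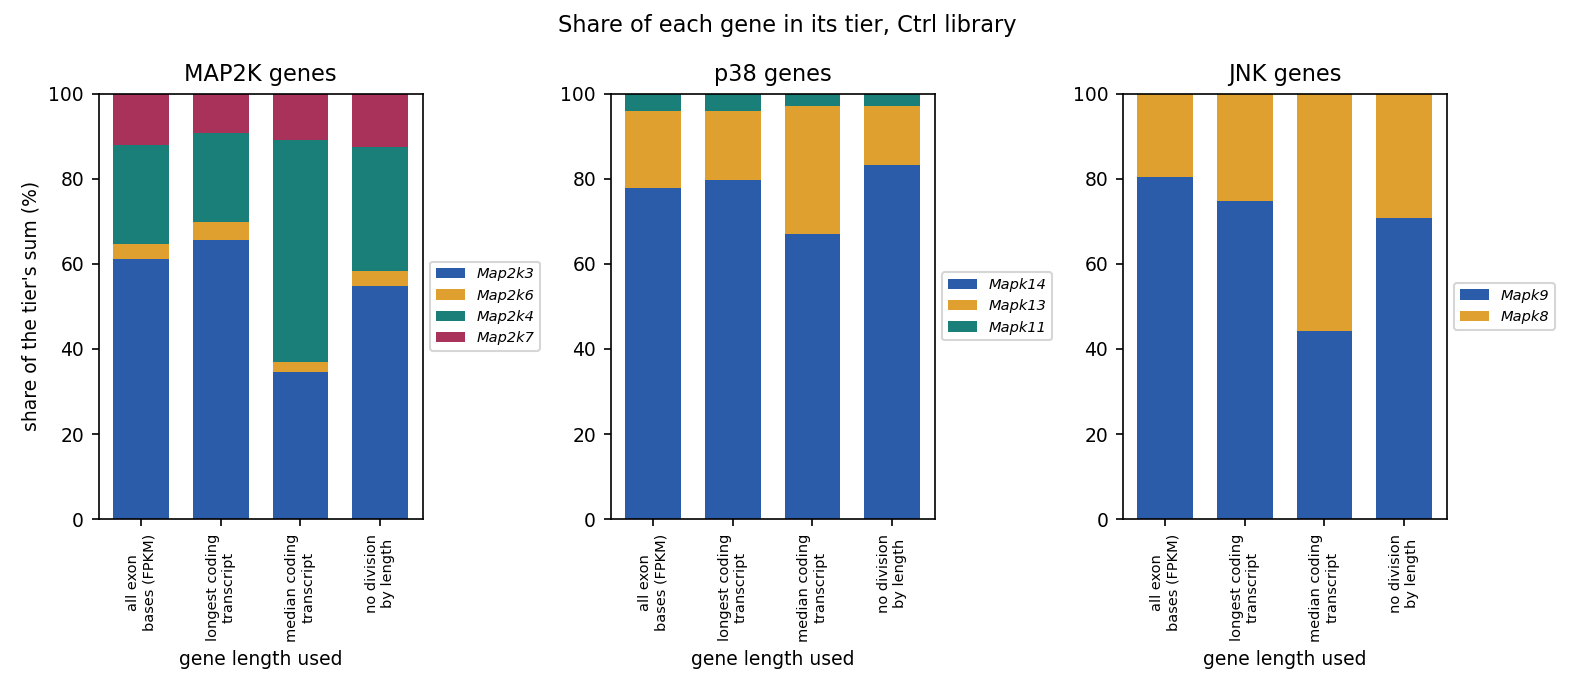
Share of each gene in the summed level of its tier, in percent, for the MAP2K, p38 and JNK genes of the Ctrl library under 4 treatments of gene length. *Mapk14* is the largest part of the p38 genes in each column, whereas *Mapk9* falls from 80.3% of the JNK genes in FPKM to 44.1% with the median coding transcript and *Map2k3* from 61.1% to 34.6% of the MAP2K genes.

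The coding sequences were most alike within the p38 genes, within the JNK genes and between the MAP2K genes of p38. The identity, counted over all positions of a global alignment, was 74.6% for *Mapk8* and *Mapk9*, 69.2% for *Mapk14* and *Mapk11*, 69.1% for *Map2k3* and *Map2k6*, 65.4% for *Mapk11* and *Mapk13* and 63.3% for *Mapk14* and *Mapk13*. The most similar p38 genes were therefore not the ones closest in level. *Mapk11* is nearer to *Mapk14* in sequence, but *Mapk14* was 18.5 times *Mapk11* in FPKM (interval, 15.9 to 21.7). This ratio was 28.1 in fragments not divided by length, 19.3 with the longest coding transcript and 22.0 with the median. Between p38 and JNK genes the identity was 49.6% to 51.7%. The other pairs of MAP2K genes were about as far apart, from 43.6% for *Map2k6* and *Map2k7* to 54.7% for *Map2k4* and *Map2k6*, with 51.9% for *Map2k4* and *Map2k7*. The longest run of bases common to transcripts of *Mapk8* and *Mapk9* was 23, as it was for *Map2k3* and *Map2k6*. For 7 of the 10 genes, no stretch of 50 bases was found in a transcript of any other annotated gene. Such stretches made up 0.871% of those of *Map3k4* and 0.110% of those of *Mapk8*, and 32.8% of those of *Map2k7*, all of the latter shared with *Gm49320*.

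**Figure D4:**
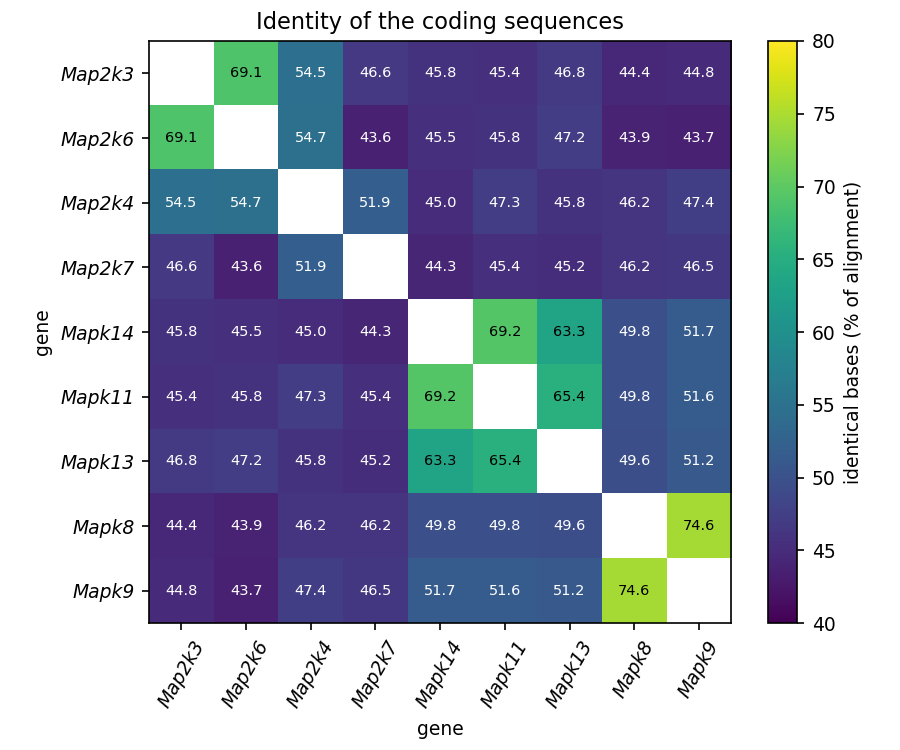
Percent of identical bases in pairwise global alignments of the longest coding sequences of the 4 MAP2K and 5 MAPK genes, by gene on both axes, with white squares on the diagonal. The highest values are 74.6% for *Mapk8* and *Mapk9* and 69.2% for *Mapk14* and *Mapk11*.

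In the genome 4 of the genes lie on chromosome 11 (*Mapk9*, *Map2k3*, *Map2k4* and *Map2k6*) and 3 on chromosome 17 (*Map3k4*, *Mapk14* and *Mapk13*). *Mapk14* and *Mapk13* are neighbours on the same strand, with 20890 bases between them, and *Mapk12* and *Mapk11* are neighbours on chromosome 15, with 1782 bases between them. In each of these pairs the levels differed, with *Mapk14* above *Mapk13* and *Mapk11* above *Mapk12*. Promoter windows were taken from RefSeq on GRCm38 as 250 bases before to 50 bases after each annotated start, and the dinucleotide CG, which reads the same on both strands, was counted in the window of each gene that held the most. Of the 10 genes, 9 had such a window with at least 15 CG, against 37.1% of the 27025 genes with a window. Those genes were not limited to coding or expressed ones, and a gene with more windows has more chances to reach 15. The contrast is therefore not one with like genes. The exception was *Map2k6*, with at most 14, and *Mapk8* had the most, 45. Of the 5 genes with more than 1 window, the window with the fewest held 18 in *Mapk14*, 4 in *Map2k6*, 3 in *Map2k4*, 1 in *Mapk8* and 0 in *Map2k7*.

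The genes that act beside and below these kinases were read from lists. Of the kinases that p38 phosphorylates or that depend on it, all 7 genes reached 1 FPKM, and their median was 25.0 FPKM. *Mknk2*, a kinase of the translation factor eIF4E, was highest at 106 FPKM, and *Mapkapk5* was lowest at 1.43 FPKM. *Mapkapk2*, whose product MK2 is the best known p38 target and acts on mRNA stability, was 1.25 times *Mapk14* in FPKM (interval, 1.195 to 1.30) and 0.866 times in fragments not divided by length. Of the transcription factor genes that JNK and p38 act on, 11 of 11 reached 1 FPKM, from 2.58 FPKM for *Elk1* to 306 FPKM for *Junb*. The median of that list was 9.57 FPKM. *Jun*, which gave JNK its name, was at 85.2 FPKM.

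Phosphatases restrain the cascades, and scaffold proteins hold their kinases together. The 10 phosphatase genes of p38 and JNK had a median of 14.2 FPKM. All reached 1 FPKM, and they ran from 1.09 FPKM for *Dusp16* to 221 FPKM for *Dusp1*, an early response gene whose product dephosphorylates p38 and JNK. No whole number of fragments was recovered for *Dusp1*, and it has no interval. Of the 8 scaffold and adaptor genes, 5 reached 1 FPKM, with *Arrb2* (β-arrestin 2) highest at 109 FPKM. *Mapk8ip2*, a JNK scaffold known from neurons, was lowest at 0.0333 FPKM from 3 recovered fragments. Over the 69 pathway genes other than the 10 kinases, 62 reached 1 FPKM, 7 did not, and 3 were under 0.1 FPKM, namely *Map3k13*, *Mapk8ip2* and *Mapk10*.

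The ERK branch, the MAPK cascade of growth factor receptors, gives a scale for these levels. Each of its 6 kinase genes was above 1 FPKM, and their median was 27.7 FPKM. *Mapk3* (ERK1), the highest at 95.2 FPKM, was 1.34 times *Mapk14* in FPKM (interval, 1.29 to 1.41) and 0.694 times in fragments not divided by length. *Map2k5* was the lowest of this branch at 6.67 FPKM. The 3 ERK phosphatase genes all reached 1 FPKM, from 9.46 FPKM for *Dusp7* to 27.6 FPKM for *Dusp6*.

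**Figure D5:**
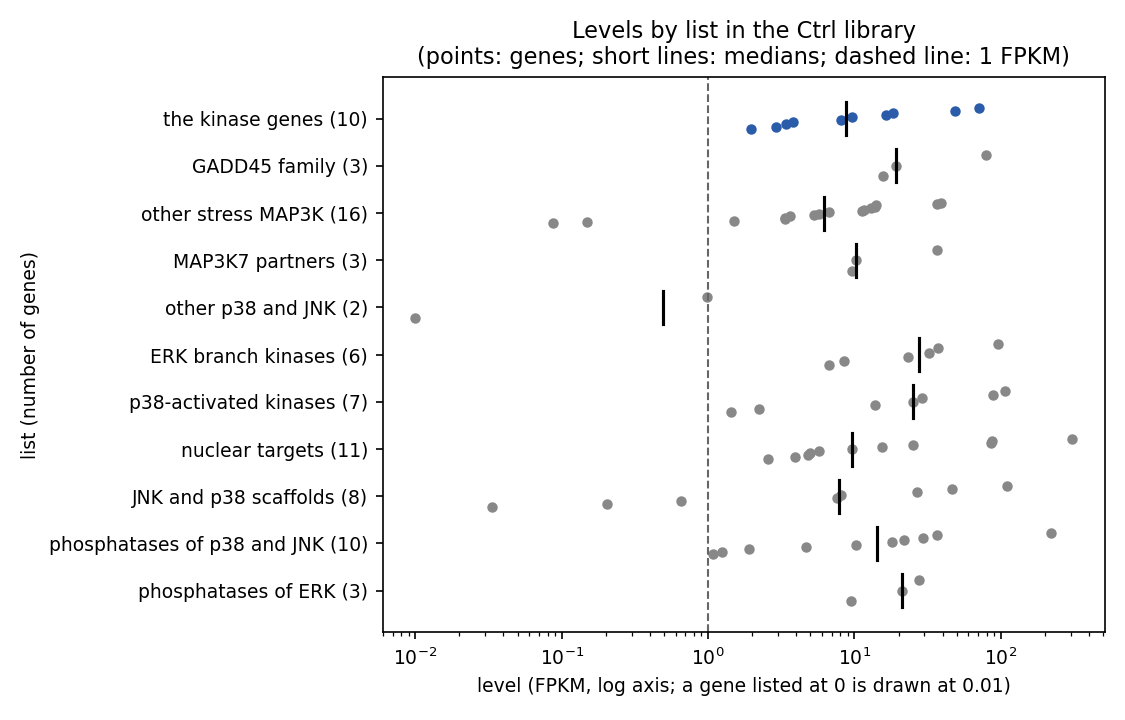
Levels in FPKM on a log axis of the 10 kinase genes (blue) and of the pathway lists (grey) in the Ctrl library, with a short line at each median and a dashed line at 1 FPKM. *Mapk10*, listed at 0, is drawn at 0.01, and the medians of the 10 kinase genes and of the ERK branch are 8.81 and 27.7 FPKM.

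The markers of the sort and of other blood cells set the frame for these values. *Kit* itself was at 7.17 FPKM. The 6 genes of sort antigens all reached 1 FPKM, and the highest was *Ly6g*, a neutrophil antigen, at 194 FPKM. *Ly6a*, the gene of Sca-1, was at 28.5 FPKM and *Itgam*, a myeloid lineage antigen, at 52.9 FPKM. Each of the 6 genes of granulocyte-macrophage progenitors (GMP) was above 1 FPKM, led by *Elane* at 781 FPKM, and so was each of the 6 genes of megakaryocyte-erythroid progenitors (MEP), led by *Car1* at 205 FPKM. None of the 5 HSC genes was, the highest being *Hlf* at 0.844 FPKM and the others *Slamf1* at 0.525, *Procr* at 0.218, *Mecom* at 0.0510 and *Hoxb5* at 0.0455 FPKM. Genes of mature cells were abundant. All 9 mature neutrophil genes reached 1 FPKM and held 12.8% of the summed FPKM, led by *S100a9* at 26677 FPKM. All 6 erythroid genes did as well and held 11.6%, led by *Hba-a1* at 25466 FPKM, and the 6 B cell genes held 1.56%, led by *Igkc* at 4323 FPKM. The 10 kinase genes together held 0.0428%. The smaller lists were those of macrophages (0.0524%, 5 of 5 genes at 1 FPKM, led by *Csf1r* at 51.5 FPKM), basophils and mast cells (0.0310%, 5 of 5, led by *Mcpt8* at 87.0 FPKM), megakaryocytes (0.0207%, 6 of 7, led by *Ppbp* at 38.7 FPKM) and T cells (0.0132%, 5 of 5, led by *Trbc2* at 35.3 FPKM). The part that mature neutrophils or other blood cells had in the levels of the kinase genes was not tested.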

How the data were processed

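Total RNA of sorted c-kit+ BM cells of Ctrl mice was extracted with TRIzol and sequenced by the authors as 1 library. The deposited values are FPKM, made by the authors, and their processing notes name HISAT2 2.0.5, featureCounts 1.5.0-p3 and the build mm10. The annotation, strand setting and handling of shared reads are not given in the sources used here.

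Symbols, coordinates, transcripts and exon lengths (all bases covered by any exon of a gene) were taken from GENCODE M21 on GRCm38, the assembly called mm10, in which 54495 of 54532 identifiers were found. FPKM times exon length was a whole multiple of 1 step, within 0.01, for 96.4% of the genes above 0 and for all 10 kinase genes, although only 80.7% of the genes on chromosome 17 had a whole multiple. The multiples were taken as fragments. Levels carry 95% Wilson intervals, and ratios and shares carry 95% exact binomial intervals. Genes at 0 were given the FPKM of 3 fragments as an upper limit. A gene was called detected at 1 FPKM. No test between groups was possible with 1 library, and no gene of like pattern was sought.

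The genes named are the 10 kinase genes, the 3 GADD45 genes, the highest and lowest gene of each list and those under 0.1 FPKM, and for markers the highest gene and those under 1 FPKM. *Jun*, *Mapkapk2*, *Kit*, *Ly6a*, *Itgam*, *Map3k10* and *Map3k20* were named after their values were seen, and some genes that the rule or the lists hold are not reported here. Members and lists were chosen with earlier results of these data known. A planned comparison of protein sequences was replaced by one of coding sequences, aligned globally (match 2, mismatch -1, gap opening -5, extension -0.5). Alternatives were other detection minimums, totals, backgrounds, gene lengths and pseudocounts. Scripts ran in Python 3.11.15 (Biopython 1.88, scipy 1.17.1, pandas 2.3.3, numpy 2.4.6, matplotlib 3.10.9).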

Additional observations from a re-analysis of the deposited data

How the results depend on the processing

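No paired analysis was possible because only 1 library was analysed, which also leaves no replicate to omit. Of 103 alternative values for 33 results, 15 reversed. The division of *Map2k7* by its unshared exon bases and the other lengths for the GADD45 ratios, the sums of branches, the neighbours in the order and the ratios to other pathway genes were chosen after seeing the data. The other alternatives were set with the lists.

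All 10 kinase genes reached 0.1 FPKM (59.1% of protein-coding genes did) and 4 reached 10 FPKM (21.2% did). Their median was 11.9 FPKM with the summed FPKM taken without the 10 most abundant genes, which multiplies every gene by 1.35, and 9.17 FPKM without mitochondrial genes. It was 4.97 times the median of genes above 0, 2.09 times that of protein-coding genes above 0 and 1.13 times that of genes at 1 FPKM or more, as follows from these backgrounds.

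With fragments not divided by length, the longest coding transcript and the median coding transcript, in that order, the share of *Mapk14* was 83.2%, 79.6% and 67.0%, that of *Mapk9* 70.7%, 74.8% and 44.1% (reversed), that of *Map2k3* 54.8%, 65.5% and 34.6%, and that of *Map2k4* 29.3%, 20.8% and 52.2%. The share of *Map2k6* was 3.40%, 4.29% and 2.27%, and that of *Map2k7* 12.5%, 9.35% and 10.9%, or 17.5% over its unshared bases. With the longest and the median coding transcript, the ratio of *Map2k4* to *Map2k7* was 2.23 and 4.77 (1.24 over unshared bases), that of *Mapk14* to *Mapk13* 4.90 and 2.24, and that of *Mapk9* to *Mapk8* 2.97 and 0.789 (reversed). With undivided fragments, the longest and the median coding transcript, the ratio to *Map3k4* was 3.98, 17.7 and 15.9 for *Gadd45a*, 0.711 (reversed), 3.01 and 2.01 for *Gadd45b*, and 0.65 (reversed), 3.30 and 1.73 for *Gadd45g*. The ratio of the p38 to the JNK sum was 4.82 undivided and 5.54 with the median, and that of the MAP2K sums reversed to 0.584 with the median. The ratio of *Mapk13* to *Mapk11* was 9.82 with the median coding transcript. Among neighbours in the order, the ratio of *Map2k3* to *Map2k4* reversed to 0.662 with the median, that of *Map2k7* to *Mapk9* to 0.671 undivided and 0.891 with the longest, that of *Mapk11* to *Map3k4* to 0.316, 0.698 and 0.366 in the same 3 settings, and that of *Map2k6* to *Mapk8* to 0.44 undivided and 0.323 with the median. Undivided, the ratios of *Mapkapk2* and *Mapk3* to *Mapk14* reversed to 0.866 and 0.694. The median takes in short annotated transcripts, such as those of *Map2k4* and *Mapk8*. With a pseudocount of 1 FPKM, the ratios of *Map2k3* to *Map2k6*, *Mapk13* to *Mapk11* and *Mapk9* to *Mapk8* were 12.7, 3.61 and 3.04. Depth limits *Map2k6* and *Mapk11* most, with 157 and 174 fragments.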
